A study of Mus musculus with 24 samples.

Results

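The genes of the voltage-gated and related potassium, sodium and calcium channels were followed in the hippocampus of aged mice. Members were taken by symbol: Kcn, Scn, Cacn or Hcn followed by a channel family letter or number, with the amiloride-sensitive Scnn genes and Kcnj13 left out. Of 24411 genes listed, 137 were channel symbols, and 104 of them had a normalized count of at least 10 in at least 5 libraries of both hippocampal tables. These 104 comprised 72 Kcn, 10 Scn, 20 Cacn and 2 Hcn genes. The other 33 were too low to be tested. A normalized count is the number of reads of a gene divided by a size factor of its library.

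The mice were C57/Bl6 males aged 20 months. They received 8 intravenous injections of 100 µl over 24 days of the young blood plasma preparation (young plasma, n = 6), of the young platelet fraction made from it (n = 6) or of saline (n = 5), and donors were 3 months old. In a second experiment, microglia were captured with CD11b beads from the hippocampus of aged mice given recombinant mouse PF4, a platelet chemokine, at 5 µg/ml (n = 4) or saline (n = 3), after the same number of injections. Each hippocampal library is labelled with its own number, but no label says whether a microglia library came from 1 mouse or from pooled mice, so p-values measure the spread between libraries.

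Voltage-gated channels are built of pore-forming subunits, which carry the voltage sensor and the ion path, and of partner subunits, which set their number at the membrane and their gating. Sodium channels start the action potential, Kv channels end it and set the firing rate, and calcium channels couple it to transmitter release and to transcription. Inward rectifiers (Kir) and tandem-pore (K2P) channels hold the resting potential, HCN channels carry a current that opens on hyperpolarization, and calcium- and sodium-activated potassium channels follow the ions that enter during firing. In hippocampal neurons these families shape dendritic integration and plasticity, whereas glia and vessel walls express their own Kir, K2P and BK members.

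By class, the 104 genes were 33 Kv pore subunits, 10 Kv partner subunits, 10 calcium- and sodium-activated potassium channel genes, 11 Kir, 8 K2P, 2 HCN, 6 sodium pore subunits, 4 sodium β subunits, 8 calcium pore subunits and 12 calcium partner subunits. Their promoters are shown for the single gene past the threshold in both treatments and for the channel gene with the smallest p in each treatment, to set the GC-rich window of Cacna2d1 (80.0% GC) beside those of Kcnab1 (46.7%) and Kcnmb1 (49.7%). RefSeq promoters of GRCm38.p6, 250 bases before to 50 after a transcript start, were found for 73 of the 104 genes (108 promoters). Capitals mark GC boxes, GGGCGG on either strand, and every motif was searched on both strands.
Kcnab1 promoter (chr3:64948962-64949261, + strand): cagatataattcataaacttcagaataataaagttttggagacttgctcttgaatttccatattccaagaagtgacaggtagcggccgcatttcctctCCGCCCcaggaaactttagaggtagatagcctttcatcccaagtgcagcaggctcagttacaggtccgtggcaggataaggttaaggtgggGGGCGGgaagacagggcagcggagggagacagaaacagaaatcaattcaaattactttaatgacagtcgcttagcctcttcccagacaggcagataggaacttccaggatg
Cacna2d1 promoter (chr5:15934441-15934740, + strand): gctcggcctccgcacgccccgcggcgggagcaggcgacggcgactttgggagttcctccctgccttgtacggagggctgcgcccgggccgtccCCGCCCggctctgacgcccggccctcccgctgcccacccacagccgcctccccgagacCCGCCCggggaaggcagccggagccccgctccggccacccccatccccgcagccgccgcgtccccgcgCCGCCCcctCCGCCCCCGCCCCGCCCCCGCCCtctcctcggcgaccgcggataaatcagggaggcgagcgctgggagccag
Kcnmb1 promoter (chr11:33962763-33963062, + strand): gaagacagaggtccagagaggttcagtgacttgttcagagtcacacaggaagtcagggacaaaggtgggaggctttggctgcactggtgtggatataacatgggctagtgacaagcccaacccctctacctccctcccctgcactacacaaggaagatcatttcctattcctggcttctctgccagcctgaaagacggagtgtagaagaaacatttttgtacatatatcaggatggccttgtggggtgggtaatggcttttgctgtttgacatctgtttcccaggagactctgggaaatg
The Cacna2d1 window held 7 GC boxes and 42 CpG dinucleotides in 300 bases, the Kcnab1 window 2 and 7, and the Kcnmb1 window no GC box and 1 CpG. Kcnab1 has 3 promoters in the table, of which the most upstream is printed, and the other two held no GC box and 3 and 1 CpG. Over the 108 channel gene promoters, 44.4% held a GC box, against 35.7% of 32851 promoters, and the median number of CpG was 9, against 7. The TATA box TATAAA was found in 4.63% of the channel gene promoters and in 13.6% of all promoters. The cAMP response element TGACGTCA was found in none of the channel gene promoters and in 1.79% of all. These are matches of letters and no site was measured.

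Hippocampal libraries held 6140510 to 10522699 reads over the listed genes, and channel genes took 0.4906% to 0.6373% of them. Markers of neurons and glia of the hippocampus were detected, and choroid plexus RNA varied, with Ttr between 833 and 53777 normalized counts. All 7 oligodendrocyte markers were higher than in saline hippocampi after both treatments. Among 9 dentate granule cell markers, 3 were lower in young plasma hippocampi and 2 in young platelet fraction hippocampi. In bulk tissue, fewer cells of a type and less RNA per cell cannot be told apart. Reads carry no molecular identifiers, so intervals from counts would cover counting error only.

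In saline hippocampi the channel genes spanned 984-fold in normalized count per kilobase of merged exons (n = 5 libraries). On this scale Scn2b, a sodium channel β subunit, was highest at 918 ± 38.1 (SD), and Kcnab2, the Kvβ2 subunit, followed at 777 ± 172. Scn3b, another β subunit, was at 532 ± 64.3, the K2P channel Kcnk1 at 483 ± 79.9 and Kcnip3, which binds Kv4 channels, at 446 ± 31.0. The ranges of Scn2b and Kcnab2 overlapped (873 to 975 and 625 to 1066), as did those of Kcnk1 and Kcnip3, so these neighbours are not ordered beyond their spread. The 3 genes with the highest means were partner subunits, but the range of Scn3b (468 to 640) overlapped that of Kcnk1 (423 to 623).

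**Figure D1:**
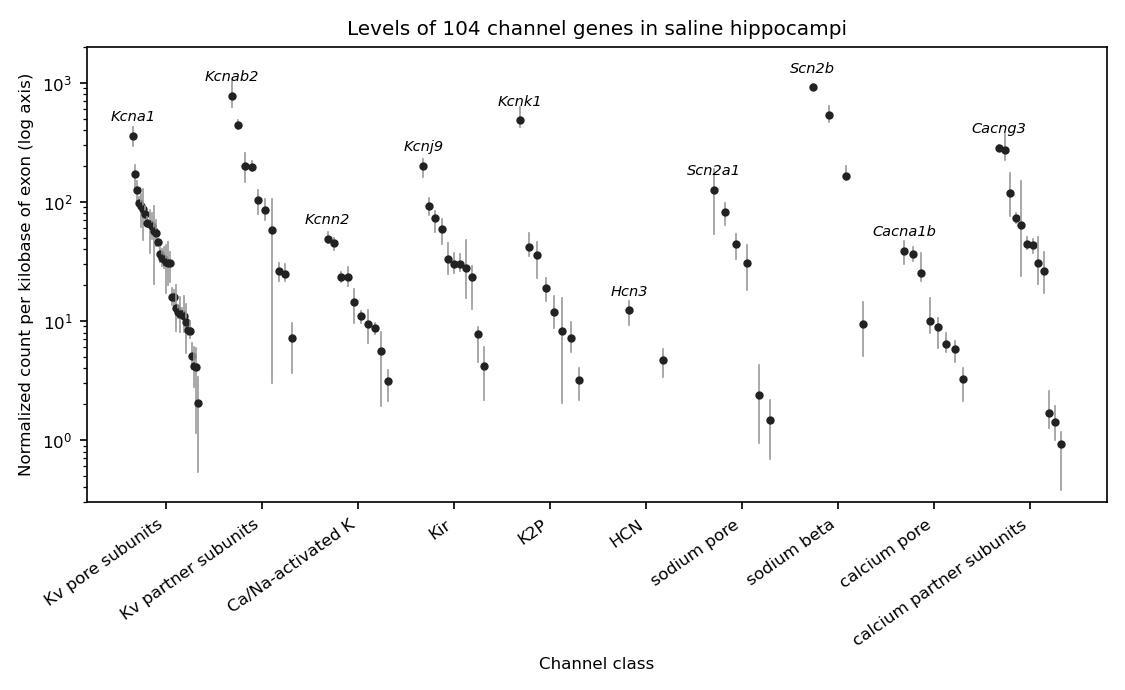
Normalized count per kilobase of exon (log axis) of the 104 channel genes in the 5 saline hippocampi, by class. Points are means and grey lines run from the lowest to the highest library. The highest gene of each class is named, and Scn2b at 918 and Kcnab2 at 777 stood at the top.

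Among Kv pore subunits, Kcna1 (Kv1.1), which limits axonal firing, had the highest level per kilobase at 359 ± 54.6, ahead of Kcnf1, a silent subunit that acts only with Kv2, at 172 ± 31.4. The sodium pore class was led by Scn2a1 (the older symbol of Scn2a, Nav1.2), at 126 ± 64.5, and Scn8a (Nav1.6), at 82.6 ± 13.5, whose ranges overlapped. Calcium pore subunits were lower, with Cacna1b (N-type, of presynaptic terminals) at 38.6 ± 7.06 and Cacna1e (R-type) at 36.6 ± 4.06, ranges that also overlapped. Their partners Cacng3, a TARP that also traffics AMPA receptors, and Cacnb3 reached 286 ± 12.3 and 275 ± 56.5. In the Kir class, Kcnj9 (GIRK3) had 200.8 ± 26.9 and Kcnj16, a glial Kir5.1 subunit, 93.2 ± 10.9. The highest calcium-activated genes were those of small-conductance SK channels, Kcnn2 at 48.9 ± 4.20 and Kcnn1 at 45.1 ± 3.81. Kcnk13, a K2P channel of microglia, was the next K2P gene at 42.0 ± 7.67, with a range that overlapped that of Kcnk2 (36.0 ± 8.62). In the HCN class, Hcn3 had 12.3 ± 2.67. The lowest channel gene was Cacna2d4 at 0.933 ± 0.328.

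Across all 17 hippocampal libraries the members differed widely in stability, and here the values are on 1 common scale. Scn2b had the smallest coefficient of variation, 6.79%, followed by Kcnma1, the BK pore subunit, at 9.38% and Kcnip3 at 10.1%. The largest was that of Kcne2, a Kv partner known from choroid plexus epithelium, at 77.1%. Kcne2 had 9.03, 96.4 and 254 normalized counts (lowest, median, highest) in young platelet fraction hippocampi, 21.5, 98.2 and 292 in young plasma hippocampi, and 55.8, 169, 5.19, 185 and 91.3 in saline hippocampi. The 3 libraries lowest in Kcne2, with 5.19, 9.03 and 21.5, were also the 3 lowest in Ttr, with 833, 1591 and 1858.

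Of the 17 hippocampal libraries, 5 stood apart on the first principal component of all genes, which carried 26.3% of the variance: young platelet fraction 7148, young plasma 7147 and 7150, and saline 7146 and 7152. No label marks them, but all 5 have numbers between 7146 and 7152, a range in which young platelet fraction 7151 is the single other library. Sodium channel genes followed this split closely. Scn2a1, the main sodium channel of excitatory neurons, had 579, 1839 and 2105 normalized counts (lowest, median, highest) in young plasma hippocampi, 643, 1807 and 2430 in young platelet fraction hippocampi, and 1999, 738, 671, 2089 and 2371 in saline hippocampi. In the 5 libraries it ran between 579 and 738, and in the other 12 between 1458 and 2430, with no overlap. Scn3a (Nav1.3) ran between 145 and 232 in the 5 and between 326 and 530 in the others, and Scn7a, a sodium-sensing channel of glia, between 2.94 and 6.92 and between 13.6 and 43.9.

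In all, 11 of the 104 channel genes (10.6%) lay below every other library in these 5, against 5.43% of 13594 genes, and 4 (3.85%) lay above, against 1.94%. Among those below were Scn2a1, Scn3a, Scn7a and Scn8a, the Kv pore subunits Kcna2, Kcna6, Kcnc2 and Kcnh5, and the Kir genes Kcnj3 (GIRK1) and Kcnj10, the astrocytic Kir4.1. Above were the calcium partners Cacnb1, Cacng2 (stargazin) and Cacng8, and Kcnip2. Cacng8 ran between 168 and 347 normalized counts in the 5 libraries and between 53.1 and 119 in the others. The longest coding transcripts of the 11 genes had a median of 7338 bases (4058 to 11582) and a median GC content of 45.8%, and those of the 4 genes a median of 2896 bases (1897 to 5510) and 58.0% GC. The 11 and the 4 genes overlapped in transcript length and in GC content (40.2% to 53.9% and 51.2% to 65.1%). The other 89 channel genes had medians of 4002 bases and 52.9% GC. The part of length and GC content in the split was not tested. Because the members entered the component, this is a description. Each treatment group held 1 or 2 of these libraries, and calls that changed without them are given below.

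Summed by prefix on the common scale, the groups overlapped. The Kcn genes summed to 23195 ± 1536 normalized counts in young plasma hippocampi, 23185 ± 1693 in young platelet fraction hippocampi and 24575 ± 1283 in saline hippocampi (SD, n = 6, 6 and 5). The Scn genes summed to 10594 ± 1466 in young plasma, 10918 ± 1265 in platelet fraction and 11141 ± 1083 in saline hippocampi. The Cacn genes summed to 5823 ± 252 in young plasma, 5834 ± 508 in platelet fraction and 6344 ± 485 in saline hippocampi. For each of these 3 prefixes the ranges of the groups overlapped.

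The first comparison asked what young plasma changed in the aged hippocampus. After young plasma, 2 channel genes were higher than in saline hippocampi, the microglial K2P channel Kcnk13 and the Kvβ3 subunit Kcnab3, and 5 were lower, the calcium partner Cacna2d1, the sodium β subunit Scn3b, the Kv partner Kcnab1, the sodium-activated potassium channel Kcnt2 and the silent Kv subunit Kcnv1. These passed an unadjusted P of 0.05 in limma, the threshold the study used. None passed adjustment over 13594 genes (smallest limma adjusted p of a member 0.9997), nor with edgeR or DESeq2, which each called 6 channel genes at the same unadjusted P. Over all 13594 genes, edgeR called 473 and DESeq2 505. In limma the share of all genes called was 1.85% higher and 1.51% lower, and that of the channel genes was 1.92% and 4.81%. No channel gene had groups that did not overlap, as 0.191% of all genes had. The median log2 difference of the members was -0.02, against -0.01 over all genes tested, with 47 above 0 and 57 below. Above 0 were 45.2% of the members and 47.3% of all genes.

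Cacna2d1 encodes the α2δ-1 subunit, which carries calcium channels to presynaptic terminals and binds gabapentin. It had 329, 413 and 512 normalized counts (lowest, median, highest) in young plasma hippocampi, against 467, 602, 598, 524 and 527 in saline hippocampi. All but 1 of the young plasma libraries lay below every saline library. The means were 415 ± 63.3 in young plasma hippocampi and 544 ± 56.9 in saline hippocampi (SD, n = 6 and 5), a log2 difference of -0.40 ± 0.12 (SE; two-sided exact permutation p = 0.0108).

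Scn3b, which binds Nav pore subunits in hippocampal neurons, had 2079, 2264 and 2949 normalized counts in young plasma hippocampi, against 2558, 2885, 3493, 2804 and 2781 in saline hippocampi. The single high young plasma library, 7159, overlapped the saline range and the other 5 did not. This gave a log2 difference of -0.30 ± 0.10 (SE; n = 6 and 5, exact permutation p = 0.0260).

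Kcnab1 encodes Kvβ1, which speeds inactivation of Kv1 channels. It had 1304, 1394 and 1614 normalized counts in young plasma hippocampi, against 1585, 1843, 1895, 1573 and 1560.1 in saline hippocampi, and 5 of the 6 young plasma libraries lay below all saline libraries. The log2 difference was -0.24 ± 0.08 (SE; n = 6 and 5, exact permutation p = 0.0260).

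Kcnt2 (Slick), a channel opened by intracellular sodium, had 38.9, 61.4 and 68.0 normalized counts in young plasma hippocampi, against 82.9, 72.7, 66.9, 82.3 and 71.3 in saline hippocampi. Only 1 young plasma library reached the saline range. The log2 difference was -0.44 ± 0.17 (SE; n = 6 and 5, exact permutation p = 0.00866). Kcnv1 (Kv8.1), which is silent alone and alters Kv2 currents, had 306, 357 and 463 normalized counts in young plasma hippocampi, against 429, 445, 425, 435 and 504 in saline hippocampi, with a log2 difference of -0.26 ± 0.12 (SE; n = 6 and 5, exact permutation p = 0.0606). Its exact test and its model thus fell on opposite sides of 0.05.

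Kcnk13 (THIK-1), a tonically open potassium channel of microglia, had 134, 173 and 227 normalized counts in young plasma hippocampi, against 170.0, 124, 116, 109 and 134 in saline hippocampi. The 3 highest young plasma libraries exceeded every saline library and the other 3 lay within the saline range. The log2 difference was 0.44 ± 0.17 (SE; n = 6 and 5, exact permutation p = 0.0476). Beside it, none of 5 microglia markers passed the threshold and all 5 had negative log2 differences (median -0.09). Kcnab3 had 244, 298 and 401 normalized counts in young plasma hippocampi, against 277, 243, 200.8, 210.2 and 302 in saline hippocampi, with a log2 difference of 0.31 ± 0.14 (SE; n = 6 and 5, exact permutation p = 0.0649).

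Beside the 5 lower genes, all 9 dentate granule cell markers had negative log2 differences (median -0.48), and their summed level on the common scale was 2751 to 5275 normalized counts in young plasma hippocampi, against 3251 to 7435 in saline hippocampi. Their part in the channel values was not tested.

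The libraries that stood apart bore on these calls. Without the 5 libraries, 3 channel genes were higher and 2 lower after young plasma, where 300 of 13185 genes were called in either direction. Kcnt2, with a log2 difference of -0.47, was the only channel gene called both with and without them. Without them Cacna2d1 was at -0.20, Scn3b at -0.17, Kcnab1 at -0.09, Kcnv1 at -0.30, Kcnk13 at 0.24 and Kcnab3 at 0.22, none past the threshold. Fewer libraries also entered that fit (n = 4 and 3), and the median over the members was then 0.03. With single libraries left out, Cacna2d1, Scn3b and Kcnab1 passed the threshold in all 11 fits. Kcnab1 did not pass with all 3 hippocampal groups in one fit, nor Kcnv1 with library total scaling, edgeR or DESeq2. Kcnt2 was lost without saline 7143, Kcnk13 without saline 7152 or 7155 or young plasma 7150 or 7156, and Kcnab3 without saline 7146, 7152 or 7155 or young plasma 7144, 7147, 7150 or 7594. Kcnv1 passed in 2 of these 11 fits, without young plasma 7150 or 7594. With sets of neighbouring library numbers as a block (5 libraries per group, an alternative chosen after seeing the data), 3 channel genes were higher and 15 lower after young plasma, where 1214 of 13517 genes were called and none passed adjustment in limma.

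**Figure D2:**
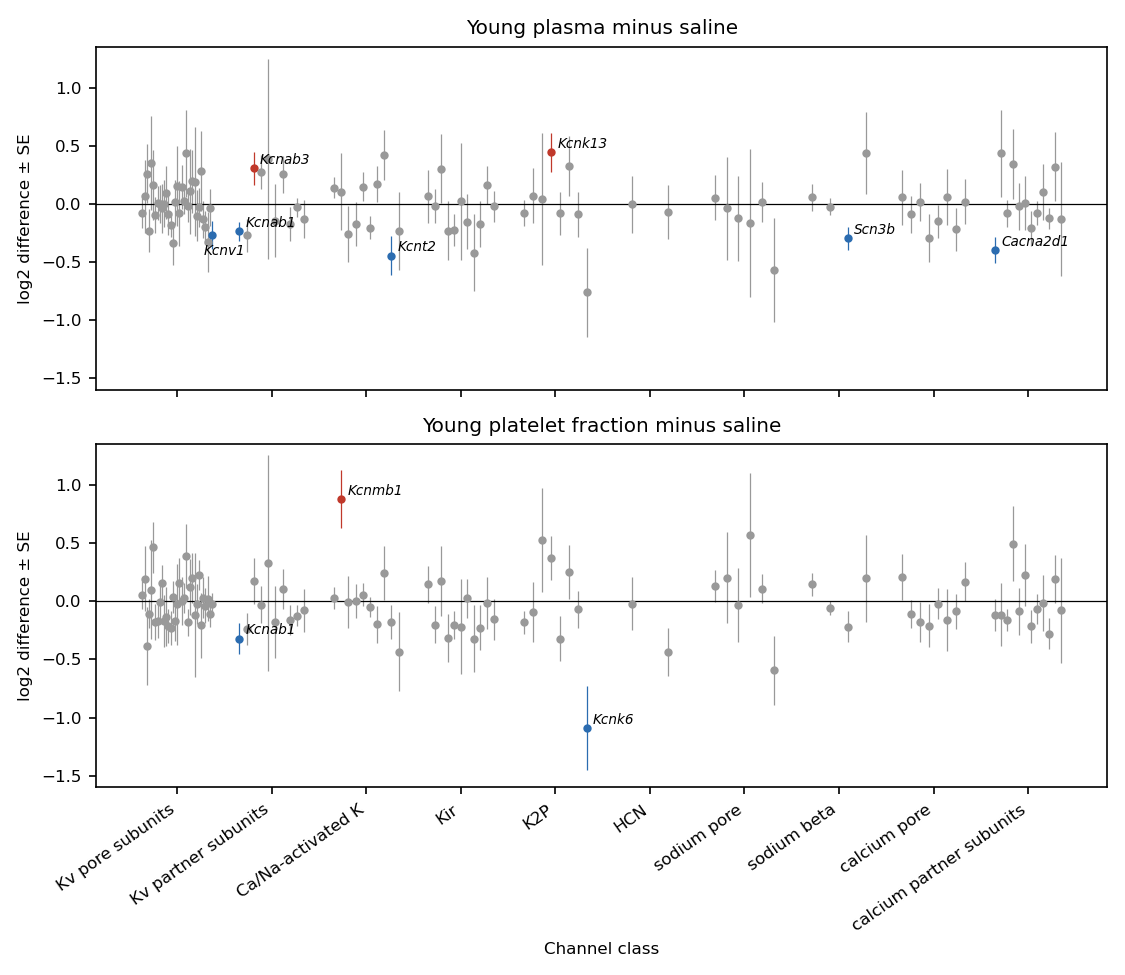
Log2 difference from saline (points, with SE bars) of the 104 channel genes by class after young plasma (top) and the young platelet fraction (bottom). Red genes were higher and blue genes lower at an unadjusted P of 0.05. After young plasma 2 were higher and 5 lower, and after the young platelet fraction 1 was higher and 2 were lower.

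The second comparison asked the same of the young platelet fraction. After it 1 channel gene was higher, Kcnmb1, the β1 subunit of BK channels, and 2 were lower, the K2P channel Kcnk6 and Kcnab1. The share of all 13603 genes called was 2.41% higher and 1.46% lower, against 0.962% and 1.92% of the channel genes. None of the members passed adjustment (smallest limma adjusted p 0.9982), nor with edgeR or DESeq2. These each called 4 channel genes at the unadjusted P, where edgeR called 527 and DESeq2 562 of all 13603 genes. The median log2 difference of the members was -0.05, against 0.00 over all genes, with 40 above 0 and 64 below. Above 0 were 38.5% of the members and 50.5% of all genes. Of the 20 Cacn genes 15 were below 0 and of the 10 Scn genes 4, none past the threshold. Both comparisons share the 5 saline libraries.

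Kcnmb1 tunes BK channels to calcium and is known above all from arterial smooth muscle. It had 18.8, 23.7 and 42.9 normalized counts (lowest, median, highest) in young platelet fraction hippocampi, against 16.3, 13.9, 13.3, 8.94 and 13.4 in saline hippocampi. All 6 treated libraries lay above all 5 saline libraries, as the groups of 0.257% of all genes did not overlap. The means were 25.6 ± 8.83 in young platelet fraction hippocampi and 13.2 ± 2.67 in saline hippocampi (SD), and the log2 difference was 0.88 ± 0.25 (SE; n = 6 and 5), with an exact permutation p of 0.00216, the smallest that 6 against 5 allows. The gene is low, and library 7154, with 42.9, stood above the others. Kcnmb1 lies within the genomic span of Kcnip1, another channel gene, which averaged 163 normalized counts in saline hippocampi. Whether reads of Kcnip1 were counted as Kcnmb1 was not tested. Without the 5 libraries that stood apart the log2 difference of Kcnmb1 was 0.92, still past the threshold, as in all 11 fits without a single library. Of the smooth muscle and pericyte markers, Acta2 averaged 444 ± 220 in young platelet fraction hippocampi and 370 ± 134 in saline hippocampi (exact permutation p = 0.656, n = 6 and 5). Of 6 endothelial and mural markers, 4 had positive and 2 negative log2 differences (median 0.11, between -0.12 and 0.53), and 0 passed the threshold. Their part in the Kcnmb1 values was not tested.

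The BK pore subunit Kcnma1 did not pass the threshold, nor did the β subunits Kcnmb2 and Kcnmb4, of which Kcnmb4 is the main neuronal one. Kcnmb1 after young plasma had 8.47, 13.8 and 31.0 normalized counts, against 16.3, 13.8, 13.2, 8.90 and 13.3 in saline hippocampi of that table, with a log2 difference of 0.11 ± 0.33 (SE; n = 6 and 5, exact permutation p = 0.742).

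Kcnk6 (TWIK-2), a K2P channel of macrophages and vessels, had 2.20, 5.56 and 12.6 normalized counts in young platelet fraction hippocampi, against 11.4, 9.03, 16.0, 16.8 and 13.4 in saline hippocampi. Of the 6 treated libraries, 5 lay below every saline library, at very few reads. Kcnk6 had a log2 difference of -1.09 ± 0.36 (SE; n = 6 and 5, exact permutation p = 0.0130), and of -0.76 ± 0.39 after young plasma (exact permutation p = 0.0844, n = 6 and 5), not past the threshold. Kcnk6 met the low-value filter through 4 saline libraries and 1 young platelet fraction library, so the group in which it was higher let it be tested, and it could be tested in 6 of the 11 fits without a single library. Without the 5 libraries it no longer met the filter. Beside it, all 5 microglia markers had negative log2 differences after the young platelet fraction (median -0.22) and 1 passed the threshold, and their part in the Kcnk6 values was not tested.

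Kcnab1, which was also lower after young plasma, had 1034, 1303 and 1967 normalized counts in young platelet fraction hippocampi, against 1593, 1850.3, 1907, 1580.2 and 1568 in saline hippocampi. Young platelet fraction library 7145, at 1967, was above all saline libraries, and the other 5 were below them. The log2 difference was -0.32 ± 0.14 (SE; n = 6 and 5, exact permutation p = 0.0649), and -0.25 without the 5 libraries, where it was not past the threshold, nor was it with neighbouring library numbers as a block (-0.24). It was also not past it without saline 7146 or 7152, or without young platelet fraction 7151, 7154, 7157 or 7595, at log2 differences between -0.43 and -0.24 over single libraries left out. Dentate granule cell markers lay lower in the same mice, with 8 of 9 negative and a median log2 difference of -0.40, and their part in the Kcnab1 values was not tested.

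**Figure D3:**
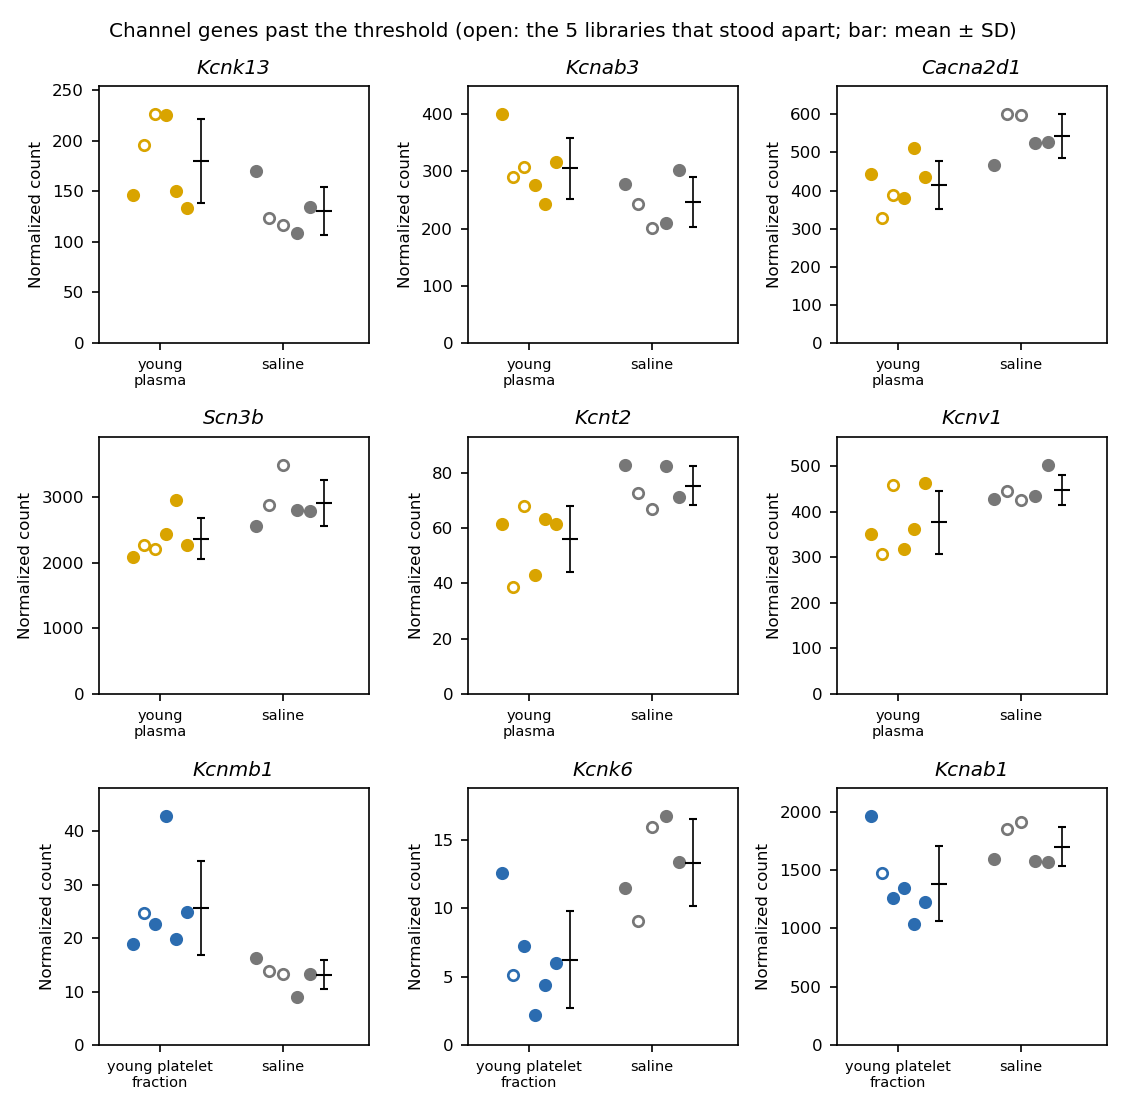
Normalized counts (vertical axes, from 0) in each library for the 9 channel genes past the threshold, with the treatment left of saline in each panel (young plasma in 6 panels, young platelet fraction in 3). Kcnab1, lower after both, is drawn for the young platelet fraction. Open points are the 5 libraries that stood apart and black bars are means with SD. Only Kcnmb1 separated, at 18.8 to 42.9 in young platelet fraction hippocampi against 8.94 to 16.3 in saline hippocampi.

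For the genes past the threshold in 1 treatment, values in the other were as follows. Cacna2d1 had a log2 difference of -0.12 ± 0.14 after the young platelet fraction, where library 7145 was at 763 normalized counts and the other 5 between 435 and 479. It was at -0.24 and past the threshold without 7145, and at 0.03 without the 5 libraries that stood apart. Scn3b was at -0.22 ± 0.13, Kcnt2 at -0.18 ± 0.15 and Kcnv1 at -0.03 ± 0.10 (SE). Kcnk13 was at 0.37 ± 0.19 and Kcnab3 at 0.17 ± 0.20. None of these passed the threshold after the young platelet fraction in the main fit. Scn3b passed without 7145, and Kcnk13 passed with DESeq2 and without saline 7143 or young platelet fraction 7151.

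Of the 2 highest genes per kilobase in each of the 10 classes, only Scn3b and Kcnk13 passed the threshold, both after young plasma. Kcnab2, whose protein joins Kv1 channels in axons, averaged 3571 ± 592 normalized counts after young plasma and 4333 ± 962 after saline (log2 difference -0.27 ± 0.14), and 3660 ± 592 following the young platelet fraction and 4356 ± 971 after saline (-0.24 ± 0.14, SE). It was not past the threshold in either. After young plasma it passed without the 5 libraries that stood apart (-0.23), without saline 7155 or young plasma 7150, and with neighbouring library numbers as a block (-0.25), and in the comparison of the young platelet fraction it passed with saline 7155 or young platelet fraction 7148 left out. Without the 5 libraries Cacna1b passed after the young platelet fraction, at -0.28 against -0.11 with them, and Hcn3 after young plasma was at 0.26, against -0.07 with them, not past the threshold. In the young platelet fraction comparison, Cacng3 (log2 difference -0.28) passed in 5 of 22 alternatives and Hcn3 (-0.43) in 4 of 21. Scn2a1 averaged 1548 ± 726 after young plasma and 1603 ± 821 after saline, a log2 difference of -0.04 ± 0.44 with the libraries that stood apart at the low end of each group.

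Genes whose products assemble with these channels but carry other symbols were set beside them. These were 32 tested genes of a fixed list, among them ankyrins, FGF homologous factors, DPP and LGI proteins, junctophilins, the NALCN complex and Pex5l. After young plasma none was higher and 1 was lower, where 1.85% and 1.51% of all genes were. The lower gene was Lgi1, a secreted protein that tunes Kv1 channels, at 1231 ± 238 against 1582 ± 199 normalized counts in saline hippocampi. After the young platelet fraction 1 was higher and 1 lower, where 2.41% and 1.46% of all genes were. Pex5l (TRIP8b), which traffics HCN channels, was higher at 191 ± 32.0 against 156 ± 20.3 in saline hippocampi, and Jph3 was lower at 6638 ± 983 against 8055 ± 1619 in saline hippocampi.

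The treatments were also compared with each other on the common scale, where 103 channel genes were tested. Of these, 3 (2.91%) were called, against 1.9% of all 13693 genes, and none passed adjustment in limma (adjusted p 0.9994), edgeR or DESeq2. Kcnmb1 was higher in young platelet fraction hippocampi, with 18.4, 23.1 and 41.7 normalized counts (lowest, median, highest), against 8.33, 13.5 and 30.5 in young plasma hippocampi (log2 difference 0.77 ± 0.31, exact permutation p = 0.0411, n = 6 each). The ranges overlapped through young plasma library 7156. Kcne1l (the older symbol of Kcne5, an X-linked Kv partner) was lower, with 32.7, 36.7 and 42.7 in young platelet fraction hippocampi against 39.2, 46.6 and 50.01 in young plasma hippocampi (-0.30 ± 0.14, exact permutation p = 0.00866, n = 6 each). Kcna3 (Kv1.3), a channel of microglia and T cells, was lower at 6.79, 18.7 and 28.9 in young platelet fraction hippocampi against 18.6, 29.8 and 36.4 in young plasma hippocampi (-0.65 ± 0.30, exact permutation p = 0.0519, n = 6 each). Without the 5 libraries none of the 3 was called, although their log2 differences were of like size, 0.79 for Kcnmb1, -0.30 for Kcne1l and -0.78 for Kcna3, and fewer libraries entered that fit. Kcnmb1 was also lost without young platelet fraction 7154 or young plasma 7144 or 7159, Kcne1l without 9 and Kcna3 without 8 of the 12 libraries left out singly.

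In isolated microglia the channel genes made up 0.02947% to 0.04736% of 19855188 to 36342162 reads. The libraries differed in other cells' RNA before any comparison: Ttr was at 501960 and 345810 normalized counts in PF4 libraries 2 and 4 and at 197500 in saline library 2, against 641 to 884 in the other 4. The thyroid hormone carrier Ttr marks choroid plexus, and Kcne2 had 678 and 1525 normalized counts in those PF4 libraries and 405 in that saline library, against 1.43 to 14.7 elsewhere. Kcnk1 went the same way, with 1603, 2845 and 1845 against 3.57 to 215.

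Kcnk13 had the highest mean normalized count of the channel genes in microglia, not corrected for length. It had 3675, 1423, 5108 and 3837 normalized counts in PF4 libraries 1 to 4, against 1318, 4758 and 4004 in saline libraries 2 to 4. The lowest library of each group, number 2 in both, was among the 3 rich in Ttr, and the groups overlapped. The log2 difference was 0.12 ± 0.53 (SE; n = 4 and 3, exact permutation p = 0.771). Kcnk6, which is low in whole hippocampus, had 508, 329, 615 and 247 normalized counts in PF4 microglia, against 401, 279 and 638 in saline microglia.

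Of 27 channel genes tested in microglia, 25 of them among the 104, none was called at an unadjusted P of 0.01, the study's threshold for these cells, where 0.389% of all 11320 genes were. In limma, edgeR and DESeq2 the count of channel genes at an unadjusted P of 0.05 was also 0. Their log2 differences ran between -3.87 and 3.92, with a median of 0.28, against 0.03 over all genes. Many had 0 reads in 1 or more libraries, and with 4 and 3 libraries an exact test cannot go below 0.0286. Single genes thus differed by several log2 units without being told from the spread between libraries.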

How the data were processed

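RNA was sequenced from 17 whole hippocampi and 7 microglia libraries. Per the study's methods and the labels, the authors used STAR for alignment to mm10, RSEM for counts per gene and DESeq2 for their own comparisons. The deposited signal is a normalized count, a count divided by a size factor of its library. The deposited tables also hold the authors' log2 fold changes and p-values, which were not used. The labels describe a strand-specific poly(A) kit and the study's methods a modified Smart-Seq2 protocol, and neither source settles which was used.

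Values of every library were whole multiples of a step within 0.01 of a read, so 100% of values came out as whole reads. Reads of the saline hippocampi were identical in both hippocampal tables, whose scales differed by 1.004 to 1.007, so saline values differ slightly between comparisons. Comparisons with saline used each table's own values. The comparison between treatments, prefix sums, markers and principal components used recovered reads of all 17 libraries with median-of-ratios size factors. The log2 of normalized counts with a pseudocount of 1 entered limma 3.58.1 (trend; R 4.3.3). A gene needed a value of 10 in at least 5 libraries of hippocampus, or 3 of microglia. Calls were made at the study's unadjusted P of 0.05 (hippocampus) and 0.01 (microglia), with Benjamini-Hochberg adjusted p over all genes tested beside them. Fold changes on this scale understate the change of low genes. Each named gene also had an exact permutation test, two-sided, on its log2 values. Alternatives included edgeR 4.0.16 and DESeq2 1.42.0 on recovered reads of the genes kept, other pseudocounts, filters and scalings, and fits without single libraries or without 5 libraries that stood apart, and, added after the data were seen, a block of neighbouring library numbers. The tests were checked on simulated data.

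Levels per kilobase used merged exons of GENCODE vM21, and genes and promoters came from RefSeq GRCm38.p6. Merged exons can be much longer than the longest coding transcript, as for Kcnk4 (4465 against 1763 bases), so ranks per kilobase depend on this choice. Reads of close paralogs or of overlapping genes may have been split between them, which makes such values uncertain. Genes are named if past a threshold against saline, if among the 2 highest per kilobase of a class, or where a count is small or a library split is described, the last chosen after values were seen. The members and lists were chosen with earlier results of these data known. Values of some single members are not reported here.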

Additional observations from a re-analysis of the deposited data

Results flagged for a closer look

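Among the named channel genes, 87 groups of libraries were screened for a library far from the rest of its group, and 5 were found. Chance alone gives about 1 in 20. On the common scale, Cacna2d1 was at 746 normalized counts in young platelet fraction library 7145, with the next at 468. Kcnmb1 was at 41.7 in young platelet fraction library 7154, with the next at 24.3. Kcnn2 was at 384 in young plasma library 7594, with the next at 315. In saline hippocampi, Kcnk1 was at 1367 in library 7152, one of those that stood apart, with the next at 1029, and Kcnv1 was at 494 in library 7596, with the next at 437.

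Channel genes that differed between the treatments in the direct comparison at an unadjusted P of 0.05 were Kcnmb1, at a log2 difference of 0.77 for young platelet fraction over young plasma, Kcne1l, at -0.30, and Kcna3, at -0.65. None passed adjustment (limma adjusted p 0.9994).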

How the results depend on the processing

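No named gene past the threshold changed direction under any alternative, and of 1242 alternative values of named genes 1141 kept their side of it, 71 lost it, 28 gained it and 2 moved by more than their error. The counts are small, so single genes move them. After young plasma, the count of higher genes was 1 with TMM scaling and 1 with all 3 hippocampal groups in one fit, against 2, and 0 to 4 with single libraries left out. The count of lower genes was 2 without the 5 libraries that stood apart, against 5, and 3 to 8 with single libraries left out. Over all genes and both directions, 456 were called with TMM scaling, 526 with all groups in one fit and 300 without the 5 libraries, against 456. With single libraries left out, 297 to 617 of all genes were called. After the young platelet fraction, the count of higher genes was 2 with no filter on low values, 0 with the filter at 50 and 2 with DESeq2, against 1, and 1 to 4 with single libraries left out. The count of lower genes was 1 with the filter at 50 and 1 without the 5 libraries, against 2, and 1 to 6 with single libraries left out. Between the treatments the count of channel genes was 0 with the filter at 50 and 7 with all groups in one fit, against 3. It was 0 to 5 with single libraries left out. Over all genes, 188 and 310 were called in those fits, against 260, and 205 to 444 with single libraries left out. With the filter at 50, Kcnmb1, Kcnk6, Kcna3 and Kcne1l are not tested. With sets of neighbouring library numbers as a block, chosen after seeing the data (15 libraries, 5 per group), the count of lower genes after young plasma was 15, the counts after the young platelet fraction were 2 higher and 1 lower, and that between the treatments was 8. Over all genes, these 3 fits called 1214 of 13517, 329 of 13519 and 546 of 13568, in either direction. No label says that these numbers mark a batch. The causes of the other shifts were not tested. The median log2 difference of the members after young plasma ran from -0.076 to 0.0034 with single libraries left out and was 0.03 without the 5 libraries, so its sign is not stable. After the young platelet fraction it ran from -0.07 to -0.03 with single libraries left out.

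In microglia the count was 0 in each alternative except without saline replicate 2, where Kcnk1 was called at a log2 difference of 6.396. Saline library 2 was the saline library rich in Ttr, with Kcnk1 at 1845 normalized counts, against 7.41 and 3.57 in saline libraries 3 and 4. PF4 libraries 2 and 4, rich in Ttr, stayed in that fit. The part of choroid plexus RNA in this call was not tested. PF4 and saline libraries share the numbers 2 to 4, whose deviations correlated at 0.136, 0.0586 and 0.0321. Correlations this small, among so few libraries, cannot decide whether a shared number means shared handling. With the replicate block the count was 0. Saline libraries 2 and 3 each correlated best with the PF4 library of their own number, and saline library 4 with PF4 library 3 (0.197). Hippocampal groups share no replicate numbers. Genes with few reads, such as Kcnmb1, Kcnk6 and Kcna3, are the least precise.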
